A study of Equus caballus with 6 samples.

Results

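The genes described here encode the proteins of the cytosolic ribosome. They were taken from all probes of the array that are not controls, wherever the probe description gave, by symbol, gene number or full name, a protein of the large subunit (RPL and a number, or the stalk proteins RPLP0, RPLP1 and RPLP2) or of the small subunit (RPS and a number, RPSA or FAU). Kinases of the RPS6K family, mitochondrial ribosomal proteins and pseudogenes were left out. This gave 188 of 43603 probes and 55 of 12846 named genes, of which 35 belong to the large and 20 to the small subunit. RPL11, RPL13A, RPS19 and RPS27A had no probe with a usable name and were not analysed here.

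Gene expression was measured on 6 single-colour Agilent horse arrays, 1 for each of 6 regions cut from 10 µm sections by laser capture microdissection, and each RNA was amplified by a PCR method (SuperAmp) before labelling. The adult regions were articular cartilage at 15 years of age, taken by depth from the joint surface: superficial (outer 10%), middle (20 to 30%) and deep (50 to 90%). The fetal regions, all from the hindlimb at gestational day 40, were 2 layers of the future joint (the intermediate and the outer interzone) and the transient embryonic cartilage of the bone models. How many animals gave tissue is not given in the sources used here, no group had a replicate, and no difference between regions therefore carries a p-value.

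The ribosome joins amino acids into proteins in every cell. Its small subunit reads the mRNA, and its large subunit forms the peptide bond. Ribosomal protein mRNAs are short and abundant, and in mammals they begin with a terminal oligopyrimidine (TOP) tract through which mTOR signalling controls their translation as a group.

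The array measures each gene with probes of 60 bases, and several results below turn on which stretch of the mRNA a probe covers. The sequences that matter are shown as the probe files give them, 5′ to 3′, with the probe's listed start in its target sequence. First come whole probes of RPS26, RPL19, RPL3, RPS7 and FAU, all from stretches that code for protein. The capitals in the second FAU probe mark the stop codon.
RPS26, start 229: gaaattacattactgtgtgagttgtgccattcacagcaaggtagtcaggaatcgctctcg
RPL19, start 377: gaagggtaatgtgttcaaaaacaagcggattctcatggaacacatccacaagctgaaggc
RPL3, start 1148: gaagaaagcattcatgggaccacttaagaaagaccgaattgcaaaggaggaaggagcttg
RPS7, start 235: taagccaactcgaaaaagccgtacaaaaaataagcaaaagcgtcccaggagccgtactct
FAU, start 364: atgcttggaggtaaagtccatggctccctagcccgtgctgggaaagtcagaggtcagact
FAU, start 496: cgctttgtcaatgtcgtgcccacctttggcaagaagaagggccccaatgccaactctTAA

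Next are the last 30 bases of tiled probes, that is, probes shifted by a few bases along the same mRNA. The capitals mark the poly(A) signal AATAAA, which the first RPLP0 probe does not hold in full.
RPS27, start 239: agtgggaaaccatcccAATAAAcacatttt
RPS27, start 243: ggaaaccatcccAATAAAcacattttggat
RPLP0, start 621: ttcagccagctttatttgtgaaacaaagaa
RPLP0, start 629: gctttatttgtgaaacaaagaAATAAAggc
RPLP0, start 636: ttgtgaaacaaagaAATAAAggcttacttc

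The last set shows why a probe cannot always be assigned to 1 gene copy. Both RPSA probes below come from different sequence records and differ at 2 bases, given in capitals.
RPSA, start 600: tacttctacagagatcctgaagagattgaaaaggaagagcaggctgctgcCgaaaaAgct
RPSA, start 682: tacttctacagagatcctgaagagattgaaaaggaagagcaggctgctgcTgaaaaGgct
Ribosomal protein genes have many near-identical copies in mammalian genomes. Of the 188 probes, 46 were described in the files as belonging to a "-like" locus, so their signal may come from more than 1 copy. The strings AATAAA or ATTAAA, searched on the probe strand, occurred in 52.7% of the ribosomal protein probes (99 of 188). They occurred in 12.1% of all 43603 probes. Tiled probes of 1 stretch, here called a site, count the same string more than once. Of 83 sites above background in transient cartilage, the first probe held such a string at 24, or 28.9%. All probes were not counted by site, so the first 2 shares are not a like comparison.

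Signal over background set what could be measured. The scanner software called 26.4%, 8.40% and 10.8% of all probes well above background on the adult superficial, middle and deep arrays, against 36.9%, 43.3% and 44.6% on the intermediate interzone, outer interzone and transient cartilage arrays. No spot was saturated. The 3 adult arrays lay on slide 2 and the 3 fetal arrays on slide 1, so slide and age cannot be told apart. As a check of the labels, the 8 cartilage markers on the array were all above background in transient cartilage, 4 of 8 in the intermediate and 6 of 8 in the outer interzone. Only 3 of 8 were above background on each adult array, and COL2A1, the main collagen of cartilage, was not well above background on any adult array.

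Ribosomal protein genes were detected more often than named genes as a whole on every array. At least 1 probe was well above background for 54, 40 and 43 of 55 genes on the adult superficial, middle and deep arrays, against all 55 on each of the 3 fetal arrays. The corresponding shares over all 12846 named genes were 29.1%, 9.74% and 12.4% on the adult arrays, and 38.4%, 44.2% and 46.5% on the intermediate interzone, outer interzone and transient cartilage arrays. Over all 6 arrays, 37 of 55 ribosomal protein genes were detected everywhere, or 67.3%, whereas 571 of the 12846 named genes were, or 4.44%. Other gene groups can be set beside this. Other genes with TOP mRNAs or roles in translation were detected for 12 of 21 in the middle and 16 of 21 in the deep zone, ubiquitous non-ribosomal genes for 4 and 7 of 15, and ribosome biogenesis factors for 8 and 9 of 46.

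**Figure D1:**
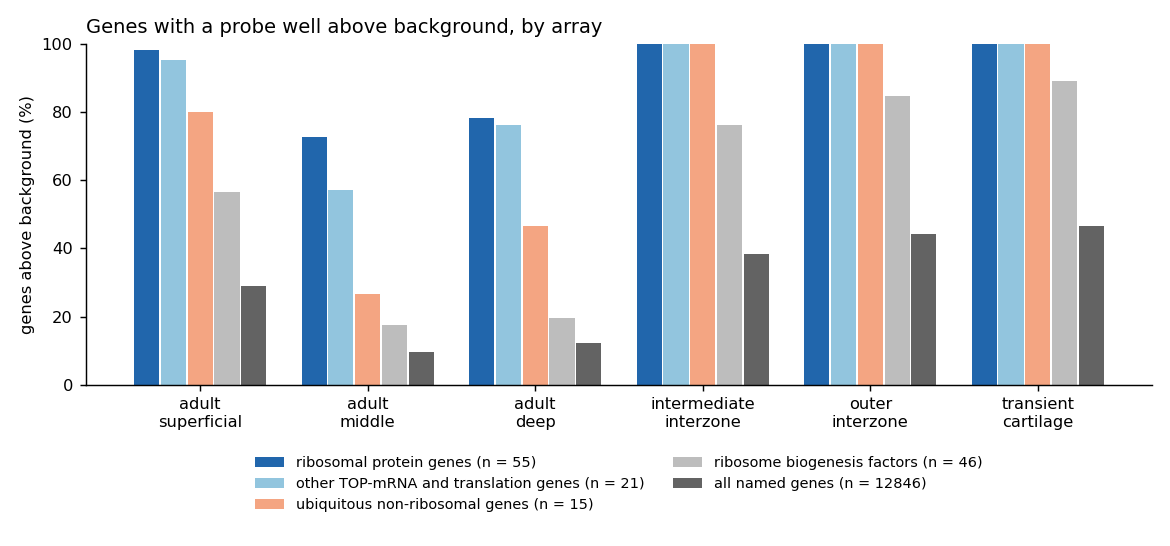
Bars give the percentage of genes with at least 1 probe well above background on each array, for ribosomal protein genes, 3 other gene groups and all named genes. Ribosomal protein genes stood at 72.7% in the adult middle and 78.2% in the adult deep zone, where all named genes stood at 9.74% and 12.4%.

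Levels are given below on the log2 scale, as the processed signal divided by the array's 75th percentile, taken over the 1765 probes that passed the background call on every array. A gene is represented by the probe with the highest mean level. A relative difference is the difference of 2 levels minus the median difference of all genes measured in that comparison, so 0 means that a gene moved with the typical gene. That median ranged from -1.53 to 0.80 over the 8 comparisons made. The scanner's own error model gave a median error of 0.20 for a difference between single arrays, and the pooled SD between probes of 1 gene was 0.24 to 0.73 depending on the comparison. Neither covers the spread between animals, dissections or amplifications. Where a count past 2-fold is given under another processing setting, the share of all genes under that setting is not given. Such counts show how the main count moves and are no result about the members alone.

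Few members, like few of all genes, kept an even level over all arrays. RPS6, a small-subunit protein that S6 kinases phosphorylate, had levels of 4.34, 5.37 and 4.76 in the adult superficial, middle and deep zones, and of 4.94, 4.46 and 4.89 in the intermediate interzone, outer interzone and transient cartilage. After each array was centred on the median of the 538 genes measured on all 6 arrays, the RPS6 values spanned 0.60 on the log2 scale. It was the only 1 of 34 ribosomal protein genes measured on all arrays whose values spanned less than 2-fold, or 2.94%. Of all 538 genes, 17 did so, or 3.16%. The other RPS6 probe, starting at 712, was less even. It differed from its transient cartilage level by -1.41 in the superficial and -1.05 in the middle zone, against -0.55 and 0.47 for the reported probe. RPS26, which lies at the mRNA exit channel of the small subunit, followed with a span of 1.07. Its levels were 3.52, 3.88 and 3.81 in the adult superficial, middle and deep zones, and 3.42, 3.25 and 3.84 in the intermediate interzone, outer interzone and transient cartilage. RPL4, which lines the peptide exit tunnel, had levels of 3.32, 4.01 and 3.05 in the same adult order, and of 3.80, 4.15 and 5.06 in the same fetal order, highest in transient cartilage, and its centred values spanned 2.17.

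**Figure D2:**
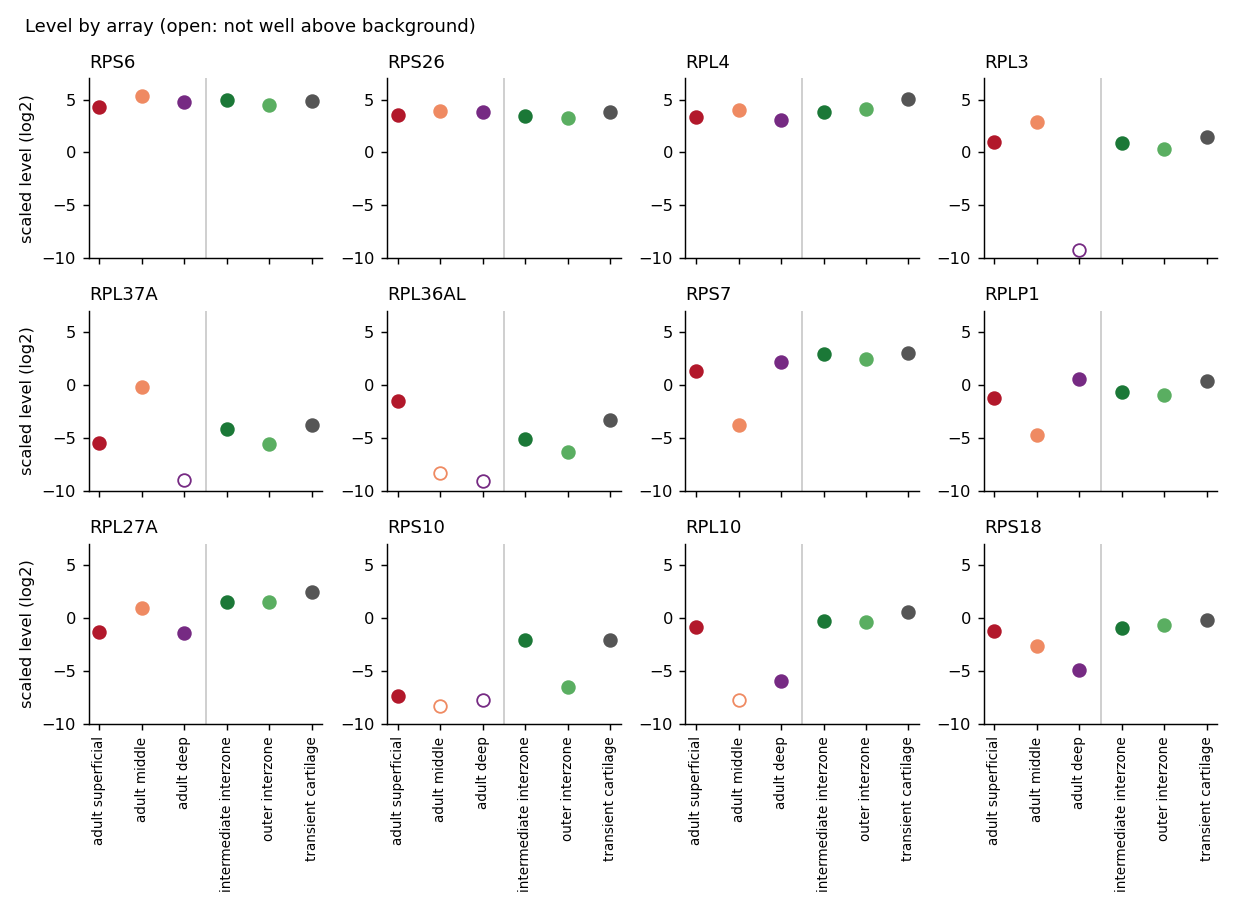
Each panel shows the scaled log2 level of 1 gene on the 3 adult and the 3 fetal arrays, with open circles where the probe was not well above background. RPS6 and RPS26 form nearly flat rows, while RPL3 was at background in the adult deep zone alone and RPS7 was lowest in the adult middle zone.

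The first question was how the interzone, which forms the joint, differs from the cartilage that is replaced by bone. In the intermediate interzone the ribosomal protein genes were lower than in transient cartilage almost without exception. All 55 were measured, 54 had a relative difference below 0, and their median was -1.14. In such pooled tissue, fewer cells of a type and less RNA per cell cannot be told apart. A difference of at least 2-fold was found for 31 genes in the lower direction and for 0 in the higher one, where 24.1% and 24.7% of all 4108 measured genes lay. Without centring on all genes the lower count was 20 and the higher one 0. The interquartile range of the members was 0.79 on the log2 scale, against 1.94 for all genes. The large subunit had a median of -1.31 over 35 genes and the small subunit one of -1.004 over 20.

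RPL13 and RPL39L were among the genes with the largest differences in that comparison. RPL13 had a level of -1.88 in the intermediate interzone, against -0.05 in transient cartilage, 4.57-fold lower relative to all genes. RPL39L, a paralog of RPL39 best known from testis, had -3.02 and -1.28, 4.29-fold lower. At the other end, RPS3A had a relative difference of -0.23 and RPL15 one of -0.14. RPL3L, a paralog of RPL3 found in striated muscle, had the only positive value, 0.59, from levels of -7.77 in the intermediate interzone and -8.71 in transient cartilage, both close to the lowest signal called above background.

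Genes with well-known roles lay inside this range. RPSA, also known as the laminin receptor, had a level of 1.66 in the intermediate interzone, against 3.07 in transient cartilage (3.39-fold lower relative to all genes). RPL4 was 3.05-fold lower and RPL22, an RNA-binding protein, 2.66-fold lower. The stalk proteins, which recruit translation factors, gave 2.52-fold lower for RPLP0, 2.55-fold lower for RPLP1 and 2.78-fold lower for RPLP2. RPL5, which carries 5S rRNA and binds MDM2, was 2.47-fold lower and RPL10, which completes the subunit joining face, 2.40-fold lower. RPS4X was 2.40-fold and RPS18 2.18-fold lower. FAU (1.85-fold), RPL3 at the peptidyl transferase centre (1.82-fold), RPS3 at the mRNA entry channel (1.47-fold), RPL38 (1.28-fold) and RPS6 (1.24-fold) stayed under the 2-fold line.

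The outer interzone differed from the same transient cartilage array in the same direction for most genes. Of 55 genes, 53 had a relative difference below 0, with a median of -0.90. The count at least 2-fold lower was 21 and the count higher was 0, beside 21.7% and 23.5% of all 4576 genes. RPS10 stood far outside the rest, with a level of -6.51 in the outer interzone, against -2.12 in transient cartilage, 22.1-fold lower relative to all genes. Its only probe is described in the file by the name of another gene, of the nudix type, and was placed with RPS10 through its gene number, so the value is uncertain. RPL36AL, an intronless copy of RPL36A, had -6.29 in the outer interzone, against -3.32 in transient cartilage, 8.25-fold lower, and RPL39L had -3.47 and -1.28, 4.79-fold lower.

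At the high end of the outer interzone, RPL15 had a relative difference of 0.04 and RPL3L one of -0.11. The stalk proteins gave relative folds of 2.24 for RPLP0, 2.63 for RPLP1 and 2.31 for RPLP2, all lower in the outer interzone. RPL3 was 2.27-fold and RPL10 2.07-fold lower, while RPL4 (1.97-fold), RPL22 (1.88-fold), RPSA (1.87-fold), RPS4X (1.72-fold), RPS3 (1.55-fold), RPS18 (1.50-fold), RPL5 (1.43-fold), RPS6 (1.42-fold), FAU (1.41-fold) and RPL38 (1.29-fold) were lower by less than 2-fold. With normexp background correction the outer interzone count fell to 8 genes, and over the 34 genes measured on all 6 arrays it was 7.

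The median shift of the ribosomal protein genes can be set beside other groups in the same arrays. In the intermediate interzone, relative to transient cartilage, the 21 other TOP and translation genes had a median relative difference of -0.29, with 5 at least 2-fold lower and 1 higher. Among these were EIF4B, a helicase cofactor (2.76-fold lower), and EEF2, the translocation factor (3.92-fold higher). The 35 measured ribosome biogenesis factors had a median of -0.37, with 11 lower and 4 higher. They ran between HEATR1, a factor of rRNA transcription and processing (20.6-fold lower), and NOC4L (11.7-fold higher). The 15 ubiquitous non-ribosomal genes had a median of -0.65, with 5 lower and 1 higher. In the outer interzone the same medians were -0.29, -0.10 and -0.41. Of 8 measured regulators of ribosomal protein mRNA, 4 were at least 2-fold lower and 1 higher in the intermediate interzone, and 2 lower and 0 higher in the outer one. The median of these regulators was -1.24 in the intermediate and 0.55 in the outer interzone. MYC, which drives ribosome production, was the lowest of them in both, 17.5-fold in the intermediate and 9.89-fold in the outer interzone. Its level of -7.55 in the intermediate interzone lay close to -8.02, the lowest signal called above background on that array. Cartilage markers moved with these comparisons: their summed scaled signal was 2.30 in the intermediate and 4.13 in the outer interzone, against 52.4 in transient cartilage. Skeletal muscle markers summed to 1.00 in the intermediate interzone and 0.46 in the outer interzone, against 0.59 in transient cartilage. The part of either in the shift was not tested.

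The intermediate and outer interzones differed little from each other. The median was -0.19 over 55 genes, with 3 at least 2-fold lower and 3 higher, where 21.3% and 21.6% of all 4062 genes lay, and its sign turned to 0.0181 when the levels were not centred on all genes. RPL13 (2.76-fold) and RPL23 (2.49-fold) were among those lower in the intermediate interzone. RPL36AL (2.04-fold), RPL37A (2.30-fold) and RPS10 (19.3-fold) were higher there. With normexp correction 13 genes were lower and 1 was higher.

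**Figure D3:**
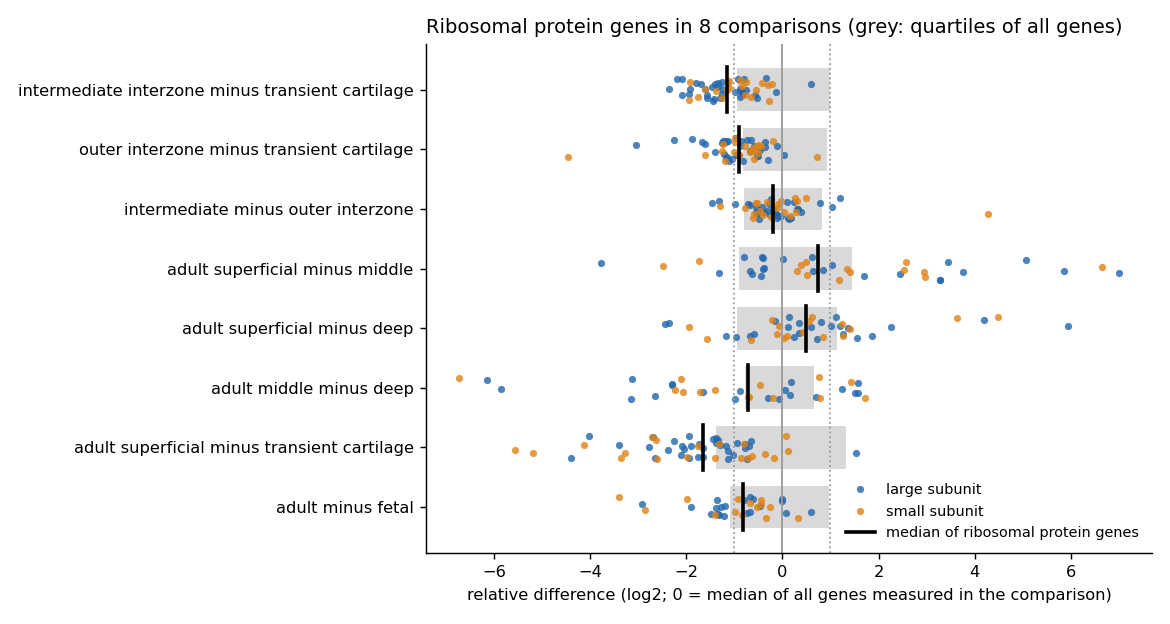
Each dot is the relative difference (log2) of 1 ribosomal protein gene, coloured by subunit, black bars are their medians, grey boxes the interquartile range of all genes measured in the comparison, and dotted lines mark 2-fold. The interzone dots mostly sit to the left of 0 in a narrow range, with medians of -1.14 and -0.90, while those of the adult zones scatter widely.

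The adult zones were then compared by depth. Between the superficial and the middle zone the members did not move as 1 group. Of 38 genes measured on both arrays, 18 were at least 2-fold higher and 4 lower in the superficial zone, beside 31.5% and 22.6% of all 930 genes, and the median was 0.74. The interquartile range of the members was 3.27, wider than the 2.36 of all genes. Direction depends on the centring here: without it the median was -0.79, because the median of all genes was itself shifted by -1.53. The counts past 2-fold were then 12 in the higher and 17 in the lower direction. Centred on non-ribosomal genes of similar brightness the median was 0.33, and with quantile normalization 2.42.

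The 4 genes highest in the superficial relative to the middle zone were low in the middle zone, and all but RPL7A were high again in the deep zone. RPS7, which like RPL5 can bind MDM2, had a level of 1.39 in the superficial and -3.73 in the middle zone, 101-fold apart relative to all genes, and of 2.20 in the deep zone. RPL7A had -0.27 in the superficial and -5.76 in the middle zone, 129-fold apart. That middle zone level lay close to -6.01, the lowest signal called above background on that array. The other RPL7A probe, starting at 680, was not above background there. The reported RPL7A probe was not well above background in the deep zone. RPL24 had 0.23 and -4.11, 58.4-fold apart, and RPLP1 had -1.21 and -4.75, 33.5-fold apart. The deep zone had 0.96 for RPL24 and 0.60 for RPLP1, so that in the middle zone RPS7 was 106-fold, RPLP1 70.7-fold and RPL24 58.2-fold lower than in the deep zone. Both sets of differences use the same middle zone array, so the second is no separate evidence. RPS7 and RPLP1 have 1 probe each and the 5 RPL24 probes lie at 1 site, so these values hold for those stretches of mRNA.

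Other genes were lower in the superficial than in the middle zone. RPL37A had a level of -5.49 in the superficial zone, against -0.18 in the middle zone, 13.8-fold lower relative to all genes, and was not well above background in the deep zone. Its reported probe is of a "-like" locus. FAU, made as a fusion of a ubiquitin-like protein with a small-subunit protein, had -2.23 in the superficial and 1.77 in the middle zone, 5.57-fold lower. RPSA (1.40-fold higher), RPS6 (1.42-fold higher), RPL4 (1.79-fold higher), RPL3 (1.30-fold lower), RPLP0 (1.55-fold lower) and RPL5 (relative difference 0.00) stayed within 2-fold in the superficial zone, while RPS18 (7.76-fold) and RPS4X (7.81-fold) were higher there. For RPLP0 and RPSA this holds for the reported probe only. The RPLP0 probe starting at 629 had -1.66 in the superficial and -3.02 in the middle zone, the opposite direction. The RPSA probe starting at 600 had 0.76 and 0.24, where the reported one had 0.76 and 1.80. RPS6 and RPL4 also had other probes more than 2-fold higher in the superficial zone, relative to all genes. The RPS6 probe starting at 712 had 3.25 in the superficial and 3.61 in the middle zone. The RPL4 probe starting at 1338 had 3.19 and 3.62.

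Between the superficial and the deep zone the median was 0.48 over 42 genes. Of these, 15 were at least 2-fold higher and 5 lower, beside 27.9% and 24.3% of all 1170 genes. RPL10 had -0.83 in the superficial and -5.94 in the deep zone, 61.6-fold higher relative to all genes. RPS18 had -1.23 and -4.89, 22.5-fold higher, and RPL10L, a testis paralog of RPL10 whose probes may also read RPL10 copies, had -1.80 and -5.17, 18.4-fold higher. The reported RPS3 probe was 12.5-fold higher, with relative differences of its 6 measured probes between 0.55 and 3.99. RPL35A (5.43-fold), RPL8 (5.12-fold), RPS16 (3.83-fold) and FAU (2.99-fold) were lower in the superficial zone. Over the 34 genes measured on all 6 arrays the median was 0.10 and the higher count 7; without centring the median was -0.35, with 6 genes higher and 10 lower, and with quantile normalization 2.03.

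In the middle zone, compared with the deep zone, 14 of 34 members lay at least 2-fold below and 6 at least 2-fold above, beside 21.2% and 16.0% of all 756 genes. The median was -0.71, and turned to 0.0859 without centring and to -0.42 when centred on genes of similar brightness. Besides RPS7, RPLP1 and RPL24, named above, RPL35A (8.88-fold) and RPL7 (8.82-fold) were lowest. RPL27A and RPL12 were among the highest in the middle zone, each 2.97-fold.

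Some genes had no probe well above background in 1 adult zone, and for them only a bound can be given. These bounds compare scaled levels and are not relative to all genes. They set the bright array against the lowest signal called above background on the dim one. RPL3 had levels of 0.97 in the superficial and 2.87 in the middle zone but was not well above background in the deep zone, so it was at least 227-fold higher in the superficial and at least 850-fold higher in the middle zone. None of its 5 tiled probes was above background in the deep zone, but they start at 1148 to 1152 and cover 1 site. The bounds therefore hold for that stretch of the mRNA. The 5 probes of RPL13 and the 5 of RPS16, named next, also lie at 1 site each. RPL13 was at least 41.9-fold higher in the superficial and at least 77.9-fold higher in the middle zone than in the deep zone. RPL38 in the superficial zone exceeded the middle zone at least 31.5-fold and the deep zone at least 56.9-fold. RPLP2 gave bounds of 5.51-fold and 9.96-fold for the same pairs. RPS16, not above background in the middle zone, was there at least 31.6-fold lower than in the deep zone. In all, 14 of 55 members were above background in the superficial and not in the middle zone and 0 the other way round. Of all 12846 named genes, 2769 and 285 were. The corresponding counts for superficial and deep were 11 and 0 of 55 members, beside 2523 and 380 of 12846 genes. In both pairs the share above background only in the superficial zone was near that of all named genes.

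**Figure D4:**
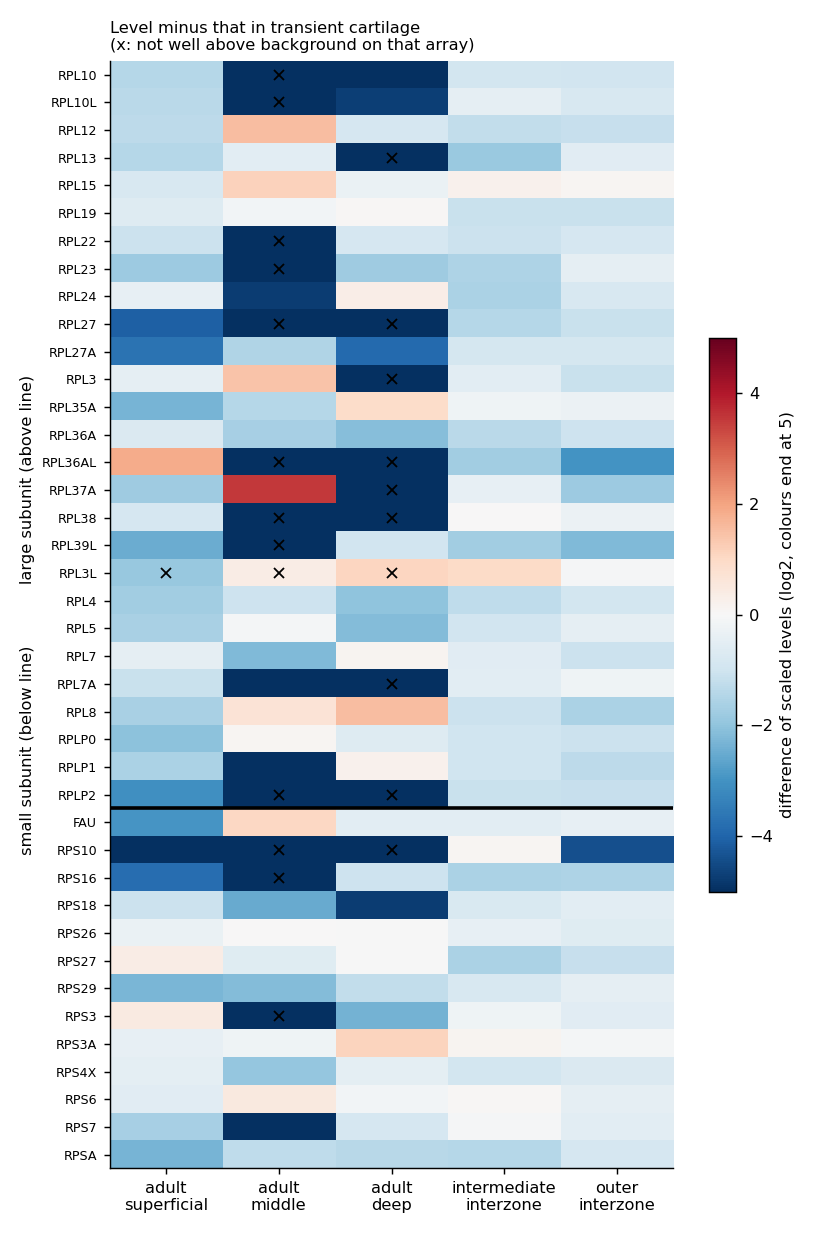
For the ribosomal protein genes named here, colours give each gene's scaled level (log2, not centred) minus its own level in transient cartilage, for the other 5 arrays, and crosses mark arrays where the probe was not well above background. The interzone columns are mostly pale blue, with RPS10 and RPL36AL darker in the outer interzone, whereas the adult middle and deep columns mix values near 0 with values beyond the end of the scale.

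The probes of 1 gene made it possible to ask whether these gaps belong to the gene or to a stretch of its mRNA. For 22 genes with probes at 2 or more separate sites, every site was above background for 16, 6 and 10 genes on the adult superficial, middle and deep arrays, and for 18, 18 and 20 on the intermediate interzone, outer interzone and transient cartilage arrays. Sites of 1 gene were split, 1 above and another not above background, for 6, 14 and 9 genes on those adult arrays. On the fetal arrays 4, 4 and 2 genes were split. RPS25 and RPS3A were split on every array, since 1 probe of each was above background on none of the 6. RPL12 and RPL37A had sites above background in transient cartilage alone. These 4 genes made up the splits on both interzone arrays and were among the 6 in the superficial zone.

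RPL19 illustrates such a split. Its coding probe printed above had a level of -7.54 in the adult middle zone, where it was not well above background, against 3.20 in transient cartilage. On the other arrays the same probe differed from transient cartilage by -0.33 in the superficial zone, -0.83 in the deep zone, -0.53 in the intermediate and -0.81 in the outer interzone. The 5 probes near the end of the same mRNA differed from their transient cartilage values by between -0.23 and 0.15 in the middle zone. RPS26 split the other way. Its first site, printed above, differed from transient cartilage by 0.04 in the middle zone, whereas the 5 probes starting at 377 to 381 differed from transient cartilage by between -8.54 and -8.36 there and were not above background. FAU split in the deep zone, where the probe starting at 364 differed from its transient cartilage value by -0.54 and the probe starting at 496 by -9.39, the second not above background.

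The change could also be steep over a few bases. The 5 RPS27 probes that start at 239 to 243 differed from their own transient cartilage values by -0.62, -2.55, -3.77, -4.36 and -7.79 in the adult middle zone, in that order, the last not above background. In the superficial zone the same probes gave between 0.32 and 0.68, in the deep zone between -0.02 and 0.61, and in the intermediate and outer interzones between -1.74 and -0.97. The RPLP0 probes starting at 621, 629 and 636 gave 0.09, -3.46 and -8.30 in the middle zone, against -2.07, -2.10 and -2.42 in the superficial zone and -0.64, -1.30 and -1.56 in the deep zone. As the sequences above show, neighbouring probes overlap in most of their bases. RPL27A gave a similar break 20 bases apart in the superficial zone, with -3.70 at the start of 440 and -12.3 at 460, the second not above background. Across all sets of at least 3 measured tiled probes, the median range of a between-array difference was 0.29 for the intermediate interzone and 0.25 for the outer interzone, each compared with transient cartilage. It was 0.37 between the superficial and middle zones, where RPS27 gave the widest range of 4.00.

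**Figure D5:**
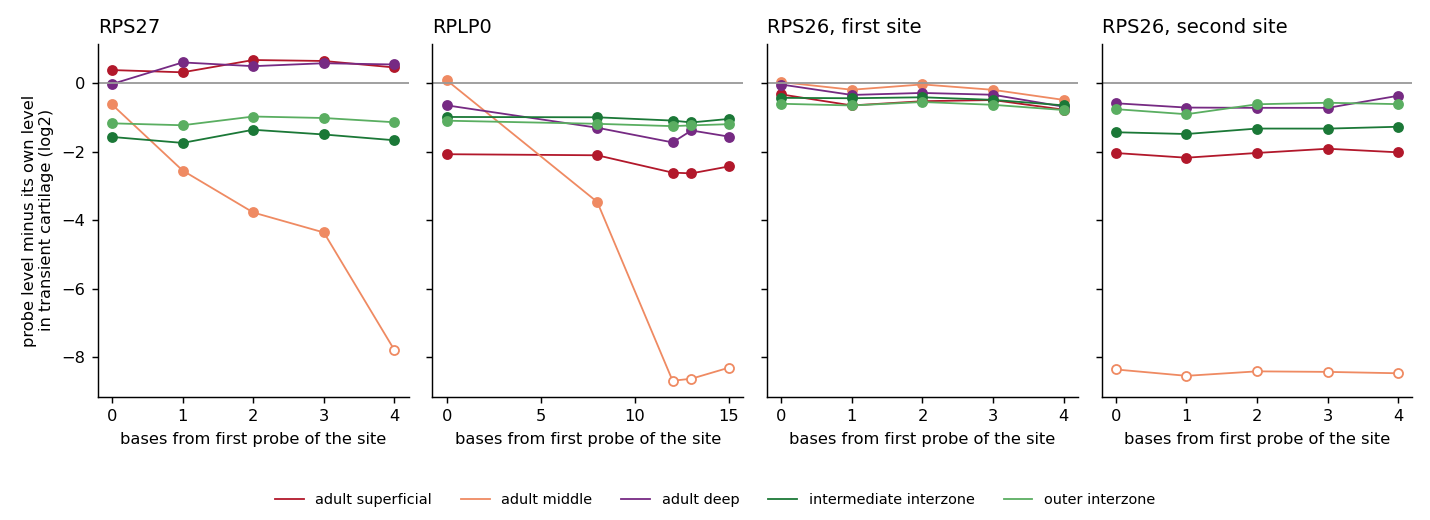
Each point is 1 probe's level minus its own level in transient cartilage (log2), plotted against its distance in bases from the first probe of the site, for 5 arrays; open circles were not well above background. The adult middle line falls steeply along the RPS27 and RPLP0 probes and lies near -8.4 along the second RPS26 site, while the other lines stay nearly level.

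For other genes the probes also disagreed in size. In the intermediate interzone relative to transient cartilage, 6 of 33 genes with several measured probes had probes over 2-fold apart, among them RPL15 (relative differences between -1.81 and -0.14), RPS3 (-1.70 to -0.35), RPS26 (-1.83 to -0.76) and RPL22 (-1.72 to -0.66). The count was 3 of 33 for the outer interzone against transient cartilage, 2 of 33 between the interzones, 8 of 21 between superficial and middle, 9 of 21 between superficial and deep, and 9 of 17 between middle and deep zones. Some of these genes had all their probes at 1 site. Where separate sites were measured, site means lay over 2-fold apart for 2 of 18 genes in the intermediate interzone against transient cartilage. The count was 3 of 18 for the outer interzone and 2 of 18 between the interzones. It was 4 of 8 between superficial and middle, 6 of 11 between superficial and deep, and 6 of 8 between middle and deep zones. RPS4X gave 2.97 and 6.75 between the superficial and middle zones, both higher in the superficial zone. RPSA gave between -0.11 and 3.31 between the superficial and deep zones, and both printed RPSA probes sat at the upper side: in the deep zone they differed from their transient cartilage values by -4.68 and -4.42, and the reported probe by -1.37.

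Adult superficial cartilage, whose array came nearest to the fetal ones in detection, was also set against transient embryonic cartilage. Of 54 measured genes, 39 were at least 2-fold lower in adult superficial cartilage and 1 was higher, beside 31.1% and 30.2% of all 2868 genes, and the median was -1.65. The large subunit had a median of -1.65 over 34 genes and the small one of -1.59 over 20. RPS10 was 47.2-fold lower, with the reservation given above. RPL27 had a level of -4.68 in adult superficial and -0.61 in transient cartilage, 21.0-fold lower relative to all genes.

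RPL36AL was the 1 gene at least 2-fold higher in adult superficial cartilage. Its level was -1.47 there, against -3.32 in transient cartilage, -5.06 in the intermediate and -6.29 in the outer interzone, and its 5 tiled probes were between 1.69 and 1.97 above their own transient cartilage values. RPS3 (1.09-fold) and RPS27 (1.05-fold) were within 2-fold on the high side. FAU (9.68-fold), RPLP2 (10.5-fold), RPSA (6.20-fold), RPLP0 (5.24-fold), RPL4 (4.15-fold), RPL5 (3.86-fold), RPLP1 (3.75-fold), RPL10 (3.40-fold), RPS18 (2.64-fold), RPL22 (2.62-fold) and RPL38 (2.26-fold) were lower in adult superficial cartilage, and RPS6 (1.83-fold), RPS4X (1.75-fold) and RPL3 (1.72-fold) were lower by less than 2-fold. Among other groups, the 20 TOP and translation genes had a median of -1.03, the 26 biogenesis factors one of -0.64, and the 12 ubiquitous genes one of -1.34. Cartilage markers summed to 8.09 in adult superficial and to 52.4 in transient cartilage, where COL2A1 alone had a level of 5.42. The 3 cartilage markers measured on both arrays had a median relative difference of 0.97, with 1 at least 2-fold higher and 1 lower. The part of these markers in the result was not tested. Quantile normalization gave a median of -2.64.

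For age, the 3 adult arrays were averaged and set against the 3 fetal ones, so that regions of 1 age stand in for replicates. On 34 members measured on all 6 arrays the median relative difference was -0.82, with 14 at least 2-fold lower and 0 higher, beside 26.2% and 24.0% of all 538 genes. RPS7 averaged -0.05 ± 3.22 in adult and 2.85 ± 0.29 in fetal arrays (SD, n = 3 each), 10.6-fold lower relative to all genes. RPL27A averaged -0.60 ± 1.32 in adult and 1.83 ± 0.52 in fetal arrays, 7.63-fold lower. RPS18 averaged -2.93 ± 1.84 in adult and -0.58 ± 0.39 in fetal arrays, 7.23-fold lower. These were the 3 lowest members. RPL8 (1.51-fold), RPS27 (1.25-fold) and RPL12 (1.05-fold) were the highest in adult relative to fetal arrays. RPLP1 (3.72-fold), RPSA (2.65-fold), RPL4 (2.60-fold) and RPL5 (2.52-fold) were lower, and FAU (2.00-fold), RPS4X (1.90-fold), RPLP0 (1.61-fold) and RPS6 (1.36-fold) were near or under the 2-fold line.

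A limma fit over the 538 genes called 0 of the 34 members at a Benjamini-Hochberg adjusted p under 0.05. Of all genes, 3.90% were called higher and 2.97% lower. The fit used scaled levels that were not centred on all genes, so it did not test the relative differences above. The smallest adjusted p among members from limma was 0.106, for RPL27A, and 3 members (RPL27A, RPS18 and RPS29) had an unadjusted p under 0.05, all lower in adult arrays, beside 25.1% of all genes (135 of 538) in either direction. Centring on genes of similar brightness brought the median to -0.48, leaving the scaled levels uncentred to -0.32, and quantile normalization to -3.10. Counts of members at least 2-fold lower were 9, 5 and 34 under those 3 settings. The shares of all genes under the same settings are not given.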

How the data were processed

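The authors deposited 6 scanner files. Per the file headers they were written by Agilent Feature Extraction, version 10.7.3.1, and hold a background-subtracted signal intensity on a linear scale. The deposited series table holds the authors' processed values of the same arrays as a ratio to each array's median. Scale and centring of that table were found by setting it against the scanner values, and it was used as an alternative.

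Control spots and outlier spots were left out, spots of 1 probe were averaged, and log2 of the deposited intensity was scaled to each array's 75th percentile, taken over the 1765 probes that passed the scanner's background call on every array. Of these, 90 were ribosomal protein probes. Probes were named from the file descriptions through a table of horse genes of RefSeq assembly TB-T2T, from which no coordinates were taken. The gene number gave the name for 83 of the 188 probes, the symbol for 56, the full name for 46, an older symbol for 2 and a symbol missing from the table for 1. A gene was measured in a comparison if its reported probe passed the background call on each array compared. The threshold was 2-fold. Named genes were the 3 highest and 3 lowest members per comparison, up to 6 examples of members not above background, up to 4 genes per comparison whose probes differed by over 2-fold, and a fixed set of well-studied members; further members were named after their values were seen, among them RPL19, RPL27A and RPS29. Other gene lists give counts and at most 2 genes each way.

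The members, lists and rules were chosen with earlier results of these data known. Differences and counts were tested on simulated data. Fits used limma 3.58.1 in R 4.3.3; other steps used Python 3.11.15 with pandas 2.3.3. Array number limits the precision, with 1 array per group. Alternatives were other scalings, quantile normalization, normexp correction with an offset of 50, the authors' table, the mean over probes, wider and narrower filters, no centring, a 4-fold threshold, leaving out arrays for age, and, chosen after seeing the data, leaving out "-like" probes and centring on genes of similar brightness. Some genes are not reported here.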

Additional observations from a re-analysis of the deposited data

How the results depend on the processing

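The median relative difference kept its direction in all 8 comparisons under every alternative that was centred on all genes or on genes of similar brightness. Its range over those settings was -1.61 to -1.01 for the intermediate and -0.98 to -0.63 for the outer interzone, each against transient cartilage, and -2.64 to -1.24 for adult superficial against transient cartilage. Without centring, the sign reversed for the intermediate against the outer interzone (0.0181), superficial against middle (-0.79), superficial against deep (-0.35) and middle against deep (0.0859), since the median of all genes was then not subtracted; the medians were -0.79 for the intermediate interzone against transient cartilage and -0.32 for adult against fetal. Normexp correction moved the intermediate interzone to -1.61 and the outer interzone to -0.63 against transient cartilage, and the interzones to -0.72 against each other; the cause was not tested. Quantile normalization moved superficial against middle to 2.42, superficial against deep to 2.03, adult superficial against transient cartilage to -2.64 and adult against fetal to -3.10; the cause was not tested. With no filter on dim genes the values were -1.56 for the intermediate interzone against transient cartilage, -0.87 between the interzones, 2.93 for superficial against middle, 1.12 for superficial against deep and -1.64 for adult against fetal, over all 55 members. Over the 34 members measured on all 6 arrays the outer interzone stood at -0.66 against transient cartilage. Centring on genes of similar brightness gave -0.48 for adult against fetal. Leaving out 1 array at a time gave -1.17 to -0.62 for adult against fetal, with the lowest value without the intermediate interzone. A 4-fold threshold left 4, 3 and 19 genes lower for the intermediate interzone, outer interzone and adult superficial cartilage against transient cartilage. Under a signal over 2 times the median negative control, 54, 41 and 45 members were detected on the adult superficial, middle and deep arrays and 55 on each fetal array. Without centring, the count at least 2-fold lower was 20 in place of 31 for the intermediate interzone against transient cartilage, 17 in place of 4 for superficial against middle, 10 in place of 5 for superficial against deep and 5 in place of 14 for adult against fetal. The count higher was 12 in place of 18 for superficial against middle and 6 in place of 15 for superficial against deep. Quantile normalization raised these counts higher to 31 and 32, and no filter on dim genes to 37 and 30. Of 218 counts under alternatives, 171 stayed within 1.5 times the main count. The shares of all genes under these alternatives are not given, so the counts are no result about the members alone. No paired analysis was possible because each group has 1 array. Low signal on the adult middle and deep arrays limits those comparisons to 38, 42 and 34 of 55 members.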
